A study of Mus musculus with 12 samples.

Results

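The IL-6 family genes examined here were 4 ligands (Il6, Lif, Il11 and Clcf1), 3 receptor chains (Il6st, Il6ra and Osmr), the transcription factor Stat3 and its feedback inhibitor Socs3. They were chosen by gene name, and all 9 were found among the 14907 genes of the 4 deposited tables and passed the filter on low values. The values come from primary mesenchymal cells of the mouse small intestine (strain C57/Bl6), grown to passage 3, sorted on GFP, serum starved overnight and profiled by QuantSeq, a 3′ RNA sequencing method that reads transcripts at their 3′ ends. There were 4 groups of 3 libraries. The MyD88ko cells carried the label ColVIcre-MyD88F/F-RosamTmG and were either given 2 µg/ml of LPS (lipopolysaccharide) from E. coli for 6 hours or left untreated. The wt cells carried the label MyD88F/F-RosamTmG and were likewise either given LPS or left untreated. By these labels, all groups carried the floxed MyD88 allele and the RosamTmG reporter. In the MyD88ko cells deletion was driven by ColVIcre, a Cre of collagen VI expressing mesenchyme. Any sorted cell in which the floxed allele was not deleted kept MyD88. The label of the wt cells names no Cre whereas the design text calls them Cre-positive, so Cre and MyD88 deletion cannot be told apart if the label is right. The labels number the replicates without saying whether they came from separate animals, and p-values then measure only the spread between these libraries, which may be technical.

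IL-6 family cytokines share the signalling chain gp130, encoded by Il6st. IL-6 binds gp130 together with the IL-6 receptor α chain (Il6ra), LIF together with the LIF receptor, IL-11 together with its own α chain, and oncostatin M, in mouse, mainly together with the oncostatin M receptor (Osmr). The receptors activate Janus kinases, which phosphorylate STAT3, and STAT3 induces SOCS3, which binds gp130 and its kinases and ends the signal. The receptor for LPS is TLR4, and MyD88 and TRIF are its signalling adaptors. Fibroblasts make IL-6 when NF-κB and C/EBP factors are activated.

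Normalized values per library summed to between 3599944 and 4320551, and the reads behind them were estimated at 2.5 to 5.3 megareads per library. Myd88 was lower in every MyD88ko library than in every wt library; the labels do not say which part of the gene is deleted. With LPS, Myd88 had normalized values of 24, 22 and 5 in MyD88ko libraries, against 171, 204 and 213 in wt libraries. Untreated, the values were 14, 8 and 10 in MyD88ko, against 99, 98 and 103 in wt. The 11 mesenchyme markers were all listed, with summed values between 43643 and 141849 per library. Mesenchyme sums were 131248 to 141849 in MyD88ko with LPS, 89025 to 111330 in MyD88ko untreated, 70613 to 117284 in wt with LPS and 43643 to 101308 in wt untreated. Of 17 leukocyte markers 5 were listed, with sums of 27 to 63 in any library and Cd68 at 14 or lower. Ptprc and Adgre1 were among the markers not listed. Sums were 0 to 10 for 2 listed endothelial markers of 7 and 7 to 44 for 3 glial markers of 4. The 4 listed hepatocyte markers of 6 summed to 35 to 147 in LPS libraries and 223 to 376 in untreated libraries. The untreated wt libraries differed among themselves: 8 listed epithelial markers summed to 403, 13 and 988 in replicates 1, 2 and 3, and the mesenchyme markers to 52110, 101308 and 43643. All untreated libraries have lower library codes than all LPS libraries, so LPS and library series cannot be told apart. The part of these markers in the results was not tested.

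Il6 and Osmr moved in opposite directions with LPS in wt cells, and these were the only 2 of the 9 genes that passed the test in any comparison. The test was limma on log2(value + 1) over 12385 genes, with a call at a Benjamini-Hochberg adjusted p under 0.05. With LPS in wt cells 1 of the 9 rose and 1 fell, where 19.2% of all tested genes were called. With LPS in MyD88ko cells 0 rose and 1 fell, where 5.98% of all genes were called. Between MyD88ko and wt cells with LPS 0 were higher and 2 lower, where 1.49% of all genes were called. In untreated cells 0 of 9 differed between MyD88ko and wt by limma or by limma-voom, and the share of all genes called was 1.88%. By limma 2 of the 9 had an unadjusted p under 0.05, as had 1923 of all 12385 tested genes. The difference between both LPS responses was called for 0 of 9 by limma and 0 by limma-voom, and for 0.0161% of all genes (0.00807% higher and 0.00807% lower). Here 2 of the 9 had an unadjusted limma p under 0.05, as had 1137 of all 12385 tested genes. The median log2 fold change of the 9 genes between MyD88ko and wt with LPS was −0.50, against 0.00 over all tested genes. Below 0 were 8 of the 9 fitted values and 6129 of all 12385. Untreated, the median of the 9 was −0.42, against 0.00 over all, with 5 of the 9 and 6128 of all below 0.

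**Figure D1:**
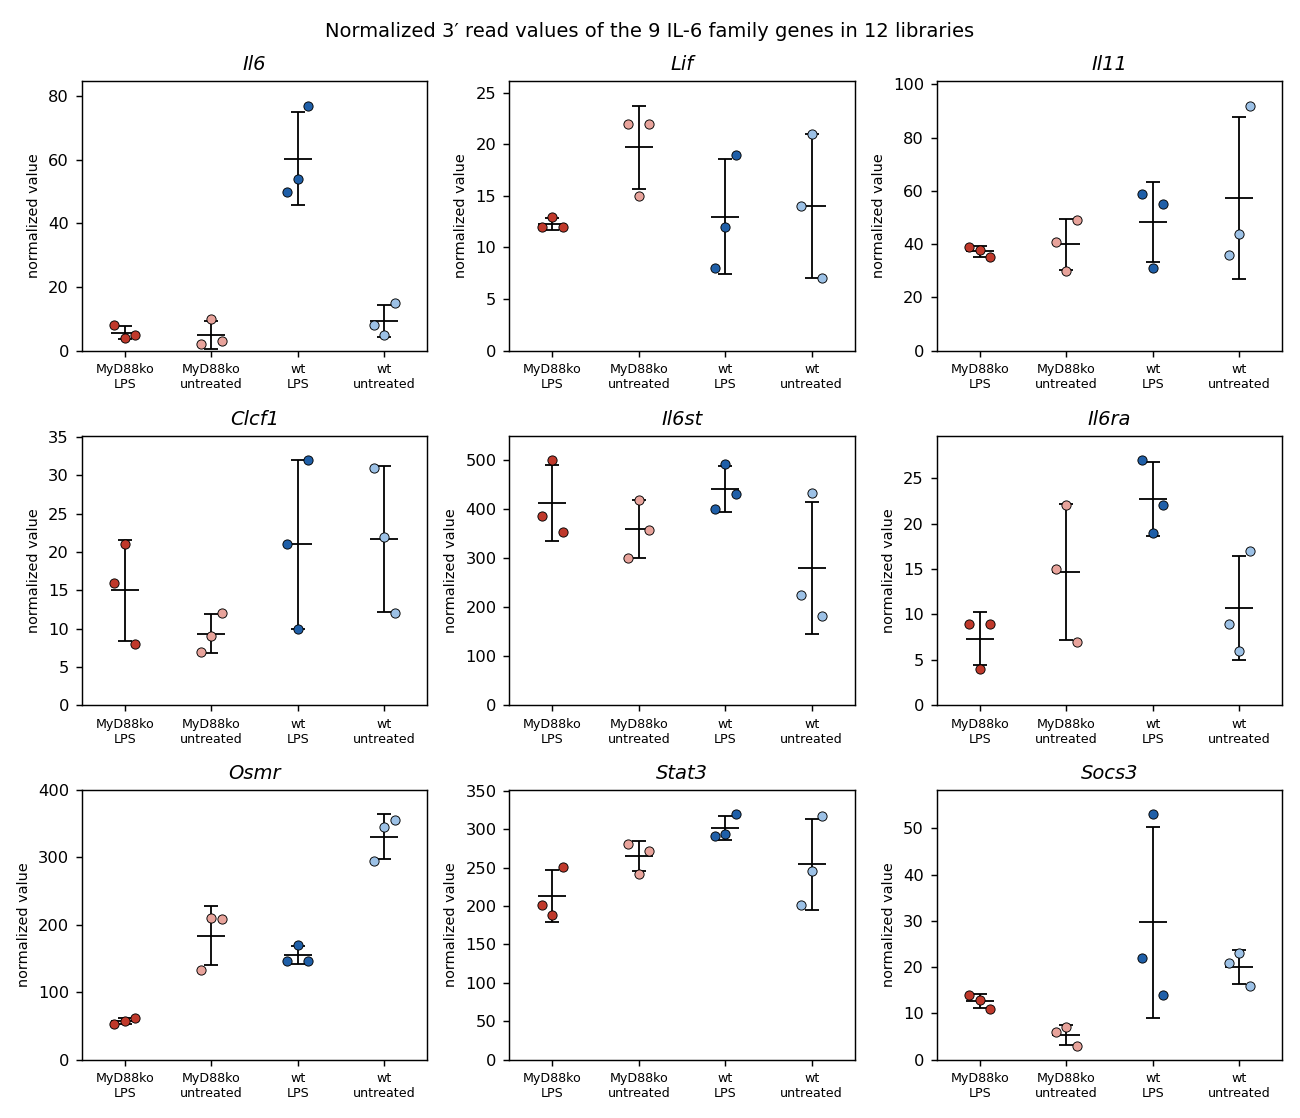
Normalized value (vertical axis, from 0, a different range in each panel) of the 9 genes in MyD88ko LPS, MyD88ko untreated, wt LPS and wt untreated libraries. Points are libraries, long bars the mean of 3 and whiskers the SD; Il6 was at 50 to 77 in wt with LPS and at 15 or lower in all other libraries, and Osmr at 53 to 62 in MyD88ko with LPS and 133 or higher elsewhere.

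Il6 encodes interleukin-6 itself (ENSMUSG00000025746, chromosome 5, 30013114 to 30019981, mm10, plus strand). It had normalized values of 8, 4 and 5 in MyD88ko with LPS and 2, 10 and 3 in MyD88ko untreated. In wt it had 50, 54 and 77 with LPS and 8, 5 and 15 untreated. The 3 wt LPS libraries stood above all 9 others, and the values of the other 3 groups overlapped. With LPS in wt cells Il6 rose 6.33-fold (log2 fold change 2.66, 95% confidence interval 1.42 to 3.91, limma adjusted p = 0.00375). In MyD88ko cells it averaged 5.67 ± 2.08 with LPS and 5 ± 4.36 untreated (SD, n = 3 each), and the interval of the log2 fold change ran from −0.90 to 1.59 (adjusted p = 0.794). With LPS, Il6 was 9.32-fold lower in MyD88ko than in wt (log2 −3.22, interval −4.47 to −1.98, limma adjusted p = 0.00539). The test of the difference between both responses gave −2.32 on the log2 scale, with an interval of −4.08 to −0.56, an unadjusted limma p of 0.0125 and an adjusted p of 0.394, so a smaller response in MyD88ko was not called. The Il6 rise in wt cells and its difference between genotypes with LPS were called under all 23 alternatives run, with the highest adjusted p at 0.0239 and 0.0400, both without wt LPS replicate 3. The values rest on few reads, with an estimated 2 to 70 reads per library. In bulk libraries, fewer cells making a transcript and less of it per cell cannot be told apart.

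The bases before the start of Il6 are shown because the gene had the largest fold change of the 9, and those before Socs3 because it is the feedback target of STAT3. Both windows hold the 250 bases upstream of the RefSeq start (GRCm38.p6, the assembly of mm10), printed 5′ to 3′ on the gene's strand, Il6 from chr5:30012864-30013113 (plus strand) and Socs3 from chr11:117969367-117969616 (minus strand, within the span that the tables give for Socs3). Capitals mark matches on either strand to 4 motifs: STAT (TTCNNNGAA), AP-1 (TGANTCA), C/EBP (TTGCNNAAT) and the 10-base NF-κB consensus.
Il6: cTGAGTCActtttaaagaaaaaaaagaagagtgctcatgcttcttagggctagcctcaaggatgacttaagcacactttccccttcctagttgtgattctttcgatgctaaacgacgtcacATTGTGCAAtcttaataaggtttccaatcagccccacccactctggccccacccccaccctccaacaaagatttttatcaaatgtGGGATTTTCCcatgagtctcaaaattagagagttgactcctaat
Socs3: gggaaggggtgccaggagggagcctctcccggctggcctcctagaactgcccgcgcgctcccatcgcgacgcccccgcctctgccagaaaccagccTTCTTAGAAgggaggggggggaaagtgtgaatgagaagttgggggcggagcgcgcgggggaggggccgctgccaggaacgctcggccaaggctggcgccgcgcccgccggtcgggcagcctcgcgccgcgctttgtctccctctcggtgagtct
In the Il6 window the NF-κB match lay 44 to 35 bases before the start, the C/EBP match 129 to 121 bases before it and the AP-1 match 249 to 243 bases before it. In the Socs3 window a STAT match lay 154 to 146 bases before the start. No match overlapped another. Of 32851 such windows of all genes, 5% held an NF-κB match, 2.11% a C/EBP match, 6.75% an AP-1 match and 7.02% a STAT match. A match describes the letters and is no measurement of binding.

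The other 3 ligands showed no called change with LPS or genotype. Il11, a cytokine of stromal cells that acts on fibroblasts and epithelium, had 39, 38 and 35 in MyD88ko with LPS and 41, 30 and 49 in MyD88ko untreated. The wt values were 59, 31 and 55 with LPS and 36, 44 and 92 untreated. All groups overlapped, and the log2 fold change with LPS had an interval of −0.86 to 0.72 in MyD88ko and −0.96 to 0.61 in wt. Lif, leukemia inhibitory factor, had 12, 13 and 12 in MyD88ko with LPS and 22, 15 and 22 in MyD88ko untreated. In wt its values with LPS were 8, 12 and 19, and its untreated values 14, 21 and 7. In MyD88ko every LPS value of Lif was below every untreated value, and the fold change was not called (log2 −0.61, interval −1.68 to 0.45). Clcf1, which encodes cardiotrophin-like cytokine factor 1, had 16, 21 and 8 in MyD88ko with LPS and 7, 9 and 12 in MyD88ko untreated. Among wt libraries it had 21, 10 and 32 with LPS and 31, 22 and 12 untreated. Untreated MyD88ko and wt libraries met at 12, and the difference of log2 −1.07 was not called (limma adjusted p = 0.355). For these 3 genes and the 4 comparisons of groups, the intervals reached at most 1.70 above 0 and 2.2 below it on the log2 scale, so changes as large as that of Il6 in wt were outside them.

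Osmr (chromosome 15, 6813577 to 6874969, minus strand) was lower with LPS in both genotypes and was lowest in MyD88ko with LPS. It had 53, 58 and 62 in MyD88ko with LPS and 133, 210 and 208 in MyD88ko untreated. In wt the values were 147, 170 and 147 with LPS and 294, 345 and 355 untreated. Both LPS groups stood wholly below their own untreated group. With LPS it fell 3.09-fold in MyD88ko (log2 −1.63, interval −2.11 to −1.14, limma adjusted p = 0.000314) and 2.13-fold in wt (log2 −1.09, interval −1.58 to −0.61, limma adjusted p = 0.00243). The difference between both falls was −0.53 on the log2 scale (interval −1.22 to 0.15) and was not called (limma adjusted p = 0.637). In LPS libraries its level was 2.65-fold lower in MyD88ko than in wt (log2 −1.41, interval −1.89 to −0.92, limma adjusted p = 0.00212). Untreated, it averaged 184 ± 43.9 in MyD88ko and 331 ± 32.7 in wt (SD, n = 3 each) with no overlap, and this difference just missed the threshold (log2 −0.87, interval −1.36 to −0.39, adjusted p = 0.0576). In the order of levels, wt untreated was highest, MyD88ko untreated and wt LPS overlapped, and MyD88ko LPS was lowest. The 3 Osmr calls held under all 23 alternatives, with adjusted p up to 0.0466. One alternative leaves out both wt untreated replicates 1 and 3, so that wt untreated rests on 1 library, which is assumed to vary like the other groups; its p-values say little about stability. The untreated difference passed the threshold without MyD88ko LPS replicate 3 (adjusted p = 0.0402) and with a group mean of at least 50 (0.0467), and without both of those wt libraries it was log2 −0.94, as large as with them, at an adjusted p of 0.456.

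Il6st, the shared chain gp130 (chromosome 13, 112464070 to 112510086, plus strand), had 386, 500 and 353 in MyD88ko with LPS and 300, 419 and 357 in MyD88ko untreated. In wt it had 400, 492 and 431 with LPS and 225, 432 and 182 untreated. Neighbouring groups overlapped in every case. The fitted fold with LPS in wt was 1.68 (log2 0.75, interval 0.20 to 1.30) and missed the threshold at a limma adjusted p of 0.0526. That value rested on the untreated wt libraries: without replicate 2 the log2 fold change was 1.11 (adjusted p = 0.00365), and without both replicates 1 and 3, against the 1 library left, it was 0.02 (adjusted p = 0.977). The low Il6st values in untreated wt replicates 1 and 3 came from the libraries with higher summed epithelial and lower summed mesenchyme markers. Of the mesenchyme markers, Pdgfrb was highest in replicate 3 (883, 1135 and 1443 in wt untreated replicates 1, 2 and 3) and the others in replicate 2. The part of these markers in the result was not tested. Without MyD88ko LPS replicate 3 the adjusted p was 0.0428 at the same fold.

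Il6ra, the chain that binds IL-6 (chromosome 3, 89864059 to 89913196, minus strand), had 9, 4 and 9 in MyD88ko with LPS and 15, 22 and 7 in MyD88ko untreated. The wt libraries had 27, 19 and 22 with LPS and 9, 6 and 17 untreated. All wt LPS values were above all wt untreated and all MyD88ko LPS values. The difference between genotypes with LPS was log2 −1.56 (interval −2.74 to −0.39, limma adjusted p = 0.233). The difference between both LPS responses was −1.97 (interval −3.63 to −0.31, limma adjusted p = 0.445). Neither was called at an estimated 4 to 31 reads per library.

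Stat3, the transcription factor downstream of gp130 (chromosome 11, 100885098 to 100939540, minus strand), varied little at the level of its transcript. It had 201, 188 and 251 in MyD88ko with LPS and 280, 242 and 272 in MyD88ko untreated, and in wt 291, 293 and 319 with LPS and 201, 245 and 317 untreated. All 3 MyD88ko LPS values were below all 3 wt LPS values, a difference of log2 −0.50 with an interval of −0.95 to −0.06 that was not called (limma adjusted p = 0.334). With LPS the intervals were −0.77 to 0.13 in MyD88ko and −0.18 to 0.71 in wt, so changes of log2 1 or −1 were outside both. The phosphorylation that activates STAT3 was not measured.

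Socs3, the feedback inhibitor (chromosome 11, 117966079 to 117970047, minus strand), was lowest in untreated MyD88ko cells. It had 14, 13 and 11 in MyD88ko with LPS and 6, 7 and 3 in MyD88ko untreated. In wt it had 22, 53 and 14 with LPS and 21, 23 and 16 untreated. Every MyD88ko untreated value was below every value of the other 3 groups, and both wt groups overlapped. The untreated difference between genotypes was log2 −1.77 (3.42-fold, interval −2.89 to −0.66) and was not called (limma adjusted p = 0.0985). In MyD88ko the fitted fold with LPS was 2.24 (log2 1.16, interval 0.05 to 2.27, limma adjusted p = 0.213). In wt it was log2 0.35 (interval −0.76 to 1.46), and without wt LPS replicate 2, the library at 53, it was −0.16 (adjusted p = 0.883). The estimated reads behind Socs3 were 4 to 68 per library.

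**Figure D2:**
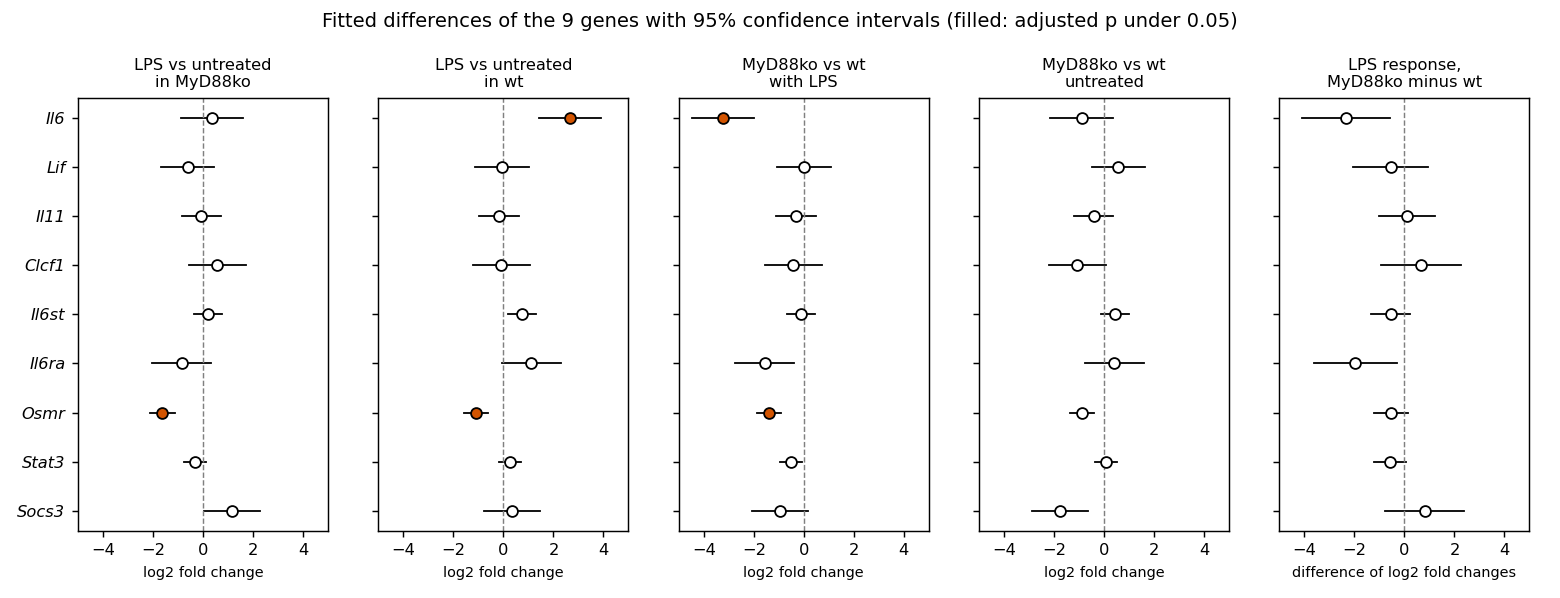
Fitted log2 fold change (horizontal axis) of each of the 9 genes in 4 comparisons of groups and, in the last panel, the difference between both LPS responses. Bars are 95% confidence intervals and filled points have an adjusted p under 0.05: Osmr in MyD88ko and wt with LPS and between genotypes with LPS, and Il6 in wt with LPS and between genotypes with LPS.

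In the authors' deposited table, Il6 had an adjusted p of 0.0275 for LPS in wt and of 0.0174 between MyD88ko and wt with LPS. In the authors' deposited tables, Osmr had an adjusted p of 0.0309 for LPS in MyD88ko, and of 0.177 for LPS in wt and 0.147 between genotypes with LPS, which are above the threshold. None of the other 7 members had an adjusted p under 0.05 in the authors' deposited tables.

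The surrounding pathway was described with a list of 45 further genes, of which 37 were tested. With LPS in wt cells 10 of the 37 rose and 4 fell (median log2 fold change 0.59, against 0.01 over all tested genes, of which 9.55% rose and 9.66% fell). With LPS in MyD88ko cells 3 rose and 2 fell (median 0.08, against 0.00 over all, of which 2.58% rose and 3.40% fell). Between MyD88ko and wt, 0 were higher and 9 lower with LPS (median −0.43, with 0.452% of all genes higher and 1.04% lower), and 0 were higher and 5 lower untreated (median −0.36, with 0.791% higher and 1.09% lower). For the difference between both responses 0 of 37 were called by limma and 0 by limma-voom. An unadjusted limma p under 0.05 was found for 7 of the 37 and for 1137 of all 12385 tested genes. The list includes acute-phase genes already known to differ in these libraries, so these counts are not independent evidence of a direction.

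All 3 Janus kinases on the list, which carry the signal from the receptors, rose with LPS in wt cells. Jak1 had 436, 504 and 491 in MyD88ko with LPS and 364, 342 and 251 in MyD88ko untreated, and in wt 764, 869 and 822 with LPS and 562, 297 and 458 untreated. It rose 1.92-fold in wt (log2 0.94 ± 0.23 SE, limma adjusted p = 0.00649). Jak2 rose 1.73-fold in wt, at 167 ± 18.4 with LPS and 100 ± 33.0 untreated (SD, n = 3 each), and Tyk2 2.34-fold, at 55.7 ± 21.6 and 22.0 ± 1.73. In MyD88ko none of the 3 was called with LPS. The log2 fold changes there were 0.59 for Jak1 (interval 0.12 to 1.07), 0.62 for Jak2 (0.07 to 1.18) and 0.20 for Tyk2 (−0.59 to 0.99). The difference between both responses was called for none of the 3 kinases. Jak2 no longer passed when wt untreated replicate 1 was left out (adjusted p = 0.230), nor without any of the 3 wt LPS libraries (0.0643, 0.0985 and 0.124 for replicates 1, 2 and 3), and without MyD88ko LPS replicate 2 (0.0535) or MyD88ko untreated replicate 1 (0.052) or 3 (0.0534). The Tyk2 call was lost without wt LPS replicate 1 (0.145) or 2 (0.0815) and without wt untreated replicate 1 (0.0725) or 3 (0.0659). Without both wt untreated replicates 1 and 3, with 1 wt untreated library left, the log2 fold change was 0.52 in place of 0.79 for Jak2 (adjusted p = 0.385) and 1.1 in place of 1.22 for Tyk2 (0.256).

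Among the other STATs and the inhibitors, LPS in wt cells was followed by lower Stat5b and Ptpn11. Stat5b fell 2.97-fold, at 26 ± 4.58 with LPS and 79.0 ± 13.5 untreated (limma adjusted p = 0.00197). Ptpn11, the phosphatase SHP2 that binds gp130 at the site SOCS3 uses, fell 2.58-fold, at 395 ± 68.2 with LPS and 1017 ± 157 untreated (adjusted p = 0.000144 by limma). In MyD88ko Ptpn11 had 381, 504 and 472 with LPS and 775, 594 and 597 untreated, groups that did not overlap, and was not called. Socs1 and Cish, further SOCS-family inhibitors, had at most 35 and 28 in any library and were not called.

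The list of textbook STAT3 targets, many of which NF-κB also induces, held 19 tested genes. With LPS in MyD88ko 3 of them rose and 2 fell, where 2.58% of all tested genes rose and 3.40% fell. With LPS in wt 6 rose and 2 fell, where 9.55% of all tested genes rose and 9.66% fell. Cebpd and Cebpb encode C/EBP transcription factors of the acute-phase response. Cebpd had 81, 120 and 67 in MyD88ko with LPS and 45, 37 and 54 in MyD88ko untreated, and in wt 649, 540 and 658 with LPS and 164, 76 and 166 untreated. Cebpd rose 4.78-fold with LPS in wt, and in LPS libraries the MyD88ko level was below that of wt (log2 −2.81 ± 0.30 SE, limma adjusted p = 2.81e-05). In MyD88ko every LPS value of Cebpd was above every untreated value. That change was log2 0.94 (interval 0.31 to 1.56) and was not called (limma adjusted p = 0.0707). The difference between both Cebpd responses was not called either (limma adjusted p = 0.362). Cebpb rose 1.95-fold in MyD88ko and 3.22-fold in wt, and in LPS libraries its MyD88ko level was 3.08-fold below that of wt (limma adjusted p = 0.000713). In MyD88ko its rise was not called without MyD88ko LPS replicate 2 (0.109) or MyD88ko untreated replicate 1 (0.0664), 2 (0.0732) or 3 (0.0584), and by limma without trend (0.0596). Hif1a, the hypoxia-inducible factor, rose 2.01-fold in wt and was 2.27-fold lower in MyD88ko than in wt with LPS (limma adjusted p = 0.00755), a difference lost without MyD88ko LPS replicate 2 (0.0635) or wt LPS replicate 1 (0.0505) and by limma without trend (0.0677).

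Bcl3, a cofactor of NF-κB, had 15, 20 and 11 in MyD88ko with LPS and 1, 3 and 1 in MyD88ko untreated, and in wt 147, 164 and 150 with LPS and 50, 10 and 45 untreated. No Bcl3 value of MyD88ko with LPS reached the wt LPS range. With LPS it rose 5.23-fold in wt (limma adjusted p = 0.00383) and 6.32-fold in MyD88ko, where the call was lost by limma-voom (adjusted p = 0.0967). The difference between both Bcl3 responses was log2 0.27 (interval −1.31 to 1.86) and was not called. The remaining STAT3 targets that rose with LPS were Junb, an AP-1 subunit, in both genotypes (3.71-fold in MyD88ko and 5.06-fold in wt) and the chaperone gene Hsp90aa1 in wt, by 1.81-fold, a call lost without wt LPS replicate 3 (adjusted p = 0.0616) or wt untreated replicate 2 (0.069). Those that fell were Pim1 and Mcl1, a kinase and a BCL2-family protein that both favour cell survival. Mcl1 had 747, 988 and 869 in MyD88ko with LPS and 1653, 1517 and 1148 in MyD88ko untreated, and in wt 673, 759 and 639 with LPS and 1509, 1932 and 2083 untreated, with no overlap between LPS and untreated libraries in either genotype. It fell 1.65-fold in MyD88ko (limma adjusted p = 0.0398) and 2.65-fold in wt (9.08e-05). In MyD88ko its call was lost without LPS replicate 1 (0.124), 2 (0.0543) or 3 (0.0595), without untreated replicate 1 (0.165) or 2 (0.141), and when wt LPS replicate 1 was omitted (0.0523). It was also lost with quantile normalization (0.0694), limma without trend (0.103) and only the groups compared in the fit (0.0653). Pim1 fell 2.32-fold in MyD88ko, at 406 ± 71.8 with LPS and 936 ± 54.3 untreated (SD, n = 3 each, limma adjusted p = 0.00694), and 1.67-fold in wt (0.0465), where the call was lost under 10 of 23 alternatives. The libraries whose omission ended it were wt untreated replicate 3 (0.252), wt LPS replicates 1 (0.206) and 2 (0.0782), MyD88ko untreated replicates 1 (0.0593), 2 (0.0591) and 3 (0.0621) and MyD88ko LPS replicate 2 (0.0585).

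The STAT3 targets lower in MyD88ko than in wt were 8 with LPS (Bcl3, Cebpd, Cebpb, Saa3, Lcn2, Hp, Hif1a and Cp, which encodes the copper carrier ceruloplasmin) and 5 untreated (Bcl3, Cebpd, Saa3, Lcn2 and Cp), and 0 were higher in either state. Of all tested genes 1.04% were lower and 0.452% higher with LPS, and 1.09% lower and 0.791% higher untreated. These counts of targets include acute-phase genes already known to differ in these libraries, so they are not independent evidence of a direction. Hp, the haemoglobin-binding acute-phase protein haptoglobin, had 0, 9 and 0 in MyD88ko with LPS and 14, 7 and 0 in MyD88ko untreated, and in wt 81, 111 and 107 with LPS and 24, 28 and 62 untreated. With LPS it was lower in MyD88ko (−5.53 ± 0.93 SE on the log2(value + 1) scale, limma adjusted p = 0.00414). Saa3, a serum amyloid A made outside the liver, had 23, 48 and 82 in MyD88ko with LPS, against 9539, 6130 and 6455 in wt with LPS. Its untreated values were 0, 5 and 17 in MyD88ko, against 5480, 1529 and 5461 in wt. Lcn2, the iron-sequestering lipocalin 2, was listed at 0 in all 3 MyD88ko untreated libraries and at 97, 24 and 37 in wt untreated. The untreated Cebpd difference was not called without MyD88ko untreated replicate 2 (adjusted p = 0.0731), wt untreated replicate 1 (0.088) or 3 (0.0614), or by limma without trend (0.0788). Without both of these wt libraries, with 1 wt untreated library left, the untreated log2 difference was −0.75 in place of −1.49 for Cebpd (adjusted p = 0.690), −2.13 in place of −3.55 for Bcl3 (0.330) and −4.64 in place of −5.50 for Lcn2 (0.0922). None of these 3 was then called. The untreated Bcl3 call was also lost by limma-voom (0.0766). Without both wt libraries the count of untreated calls on the whole list was 2 in place of 5.

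Of the other receptor chains, Lifr, which pairs with gp130 for LIF, had 22, 13 and 25 in MyD88ko with LPS and 19, 23 and 19 in MyD88ko untreated, and in wt 60, 42 and 74 with LPS and 44, 30 and 40 untreated. All 6 MyD88ko values were below all 6 wt values. In LPS libraries the MyD88ko level was 2.86-fold below wt (log2 −1.52, interval −2.31 to −0.73, limma adjusted p = 0.0470), a call that held under only 7 of 23 alternatives. Leaving out any of 10 libraries ended it, all except MyD88ko LPS replicate 3 and wt untreated replicate 2, with adjusted p from 0.0559 to 0.202. Il11ra1, the chain that binds IL-11, averaged 1234 ± 520 in MyD88ko with LPS, 937 ± 218 in MyD88ko untreated, 1233 ± 201 in wt with LPS and 820 ± 210 in wt untreated (SD, n = 3 each) and was not called in any comparison.

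**Figure D3:**
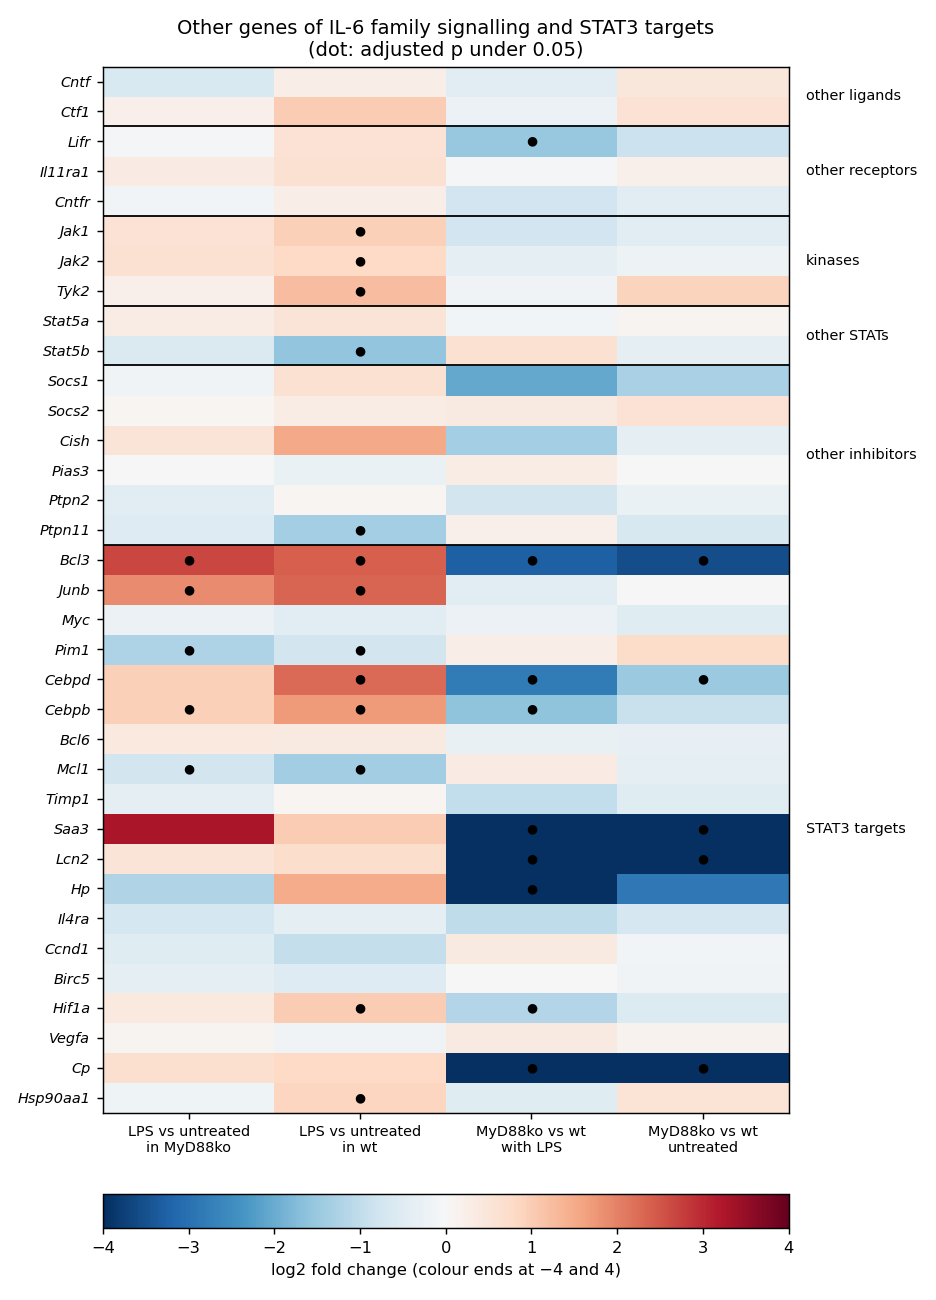
Log2 fold change (colour, ends at −4 and 4) of 35 of the 37 tested genes of the wider list in 4 comparisons, grouped by role, with a dot where the adjusted p was under 0.05. The columns MyD88ko vs wt hold dots only on blue cells, 9 with LPS and 5 untreated, and the 3 kinases have dots only in the column of LPS in wt.

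The genes whose values over the 12 libraries were most like those of Il6, among 9918 protein-coding genes with a group mean of at least 20, were Sod2 (Pearson r = 0.967, Spearman rho = 0.891), Nedd4l (0.927 and 0.792), Slc11a2 (0.923 and 0.800), Syt17 (0.923 and 0.928) and Cxcl16 (0.915 and 0.782). Sod2, the mitochondrial superoxide dismutase, had 441, 416 and 330 in MyD88ko with LPS and 323, 408 and 328 in MyD88ko untreated, and in wt 1245, 1236 and 1129 with LPS and 480, 401 and 665 untreated. Like Il6, it was far higher in the 3 wt LPS libraries than in any other. Slc11a2, a divalent metal ion transporter, averaged 210 ± 12.8 in MyD88ko with LPS, 141 ± 12.8 in MyD88ko untreated, 470 ± 97.4 in wt with LPS and 198 ± 31.1 in wt untreated (SD, n = 3 each).

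Socs3 had other nearest genes: Hand2 (r = 0.909, rho = 0.841), Igf2 (0.900 and 0.872), Tbc1d2b (0.900 and 0.834), Auts2 (0.889 and 0.942) and Nid2 (0.888 and 0.855). Igf2, an insulin-like growth factor, had 2, 13 and 7 in MyD88ko with LPS and 4, 1 and 0 in MyD88ko untreated, and in wt 19, 117 and 27 with LPS and 22, 61 and 17 untreated. Both Socs3 and Igf2 were highest in wt LPS replicate 2. That library also had the highest summed mesenchyme markers of its group, as had replicate 2 of every group. The sums of replicate 2 were 141849 (MyD88ko LPS), 111330 (MyD88ko untreated), 117284 (wt LPS) and 101308 (wt untreated). The part of these sums in the likeness was not tested. Among the 9 members themselves, the highest correlations were between Il6 and Il6ra (r = 0.72) and between Il6ra and Stat3 (0.70), and the lowest was between Il11 and Il6st (−0.52). These correlations describe 12 libraries that share 4 groups.

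**Figure D4:**
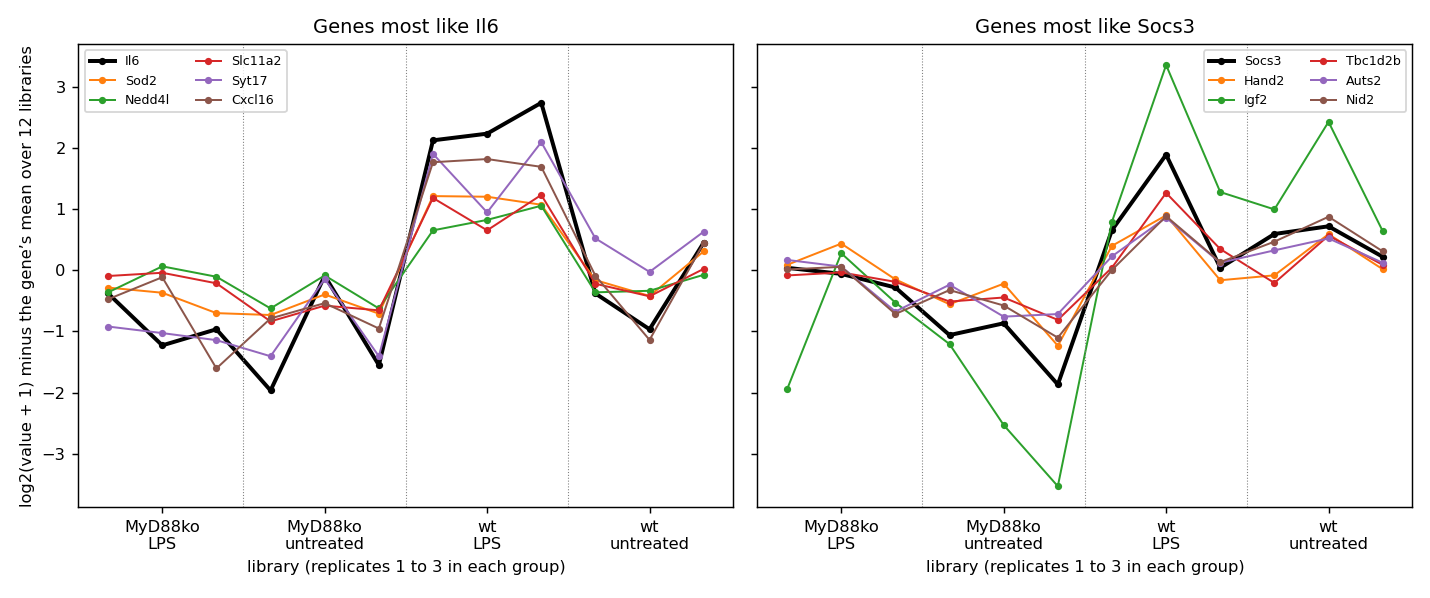
Log2(value + 1) of Il6 (left) and Socs3 (right), in black, and of their 5 most similar genes, each minus its own mean over 12 libraries, by library in the order of groups MyD88ko LPS, MyD88ko untreated, wt LPS and wt untreated. The Il6 set is high in the 3 wt LPS libraries, and the Socs3 set is highest in replicate 2 of wt LPS.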

How the data were processed

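Gene expression was measured in 12 libraries, 3 in each of 4 groups. Per the submitters' processing notes, the build was mm10 and the tools included DESeq, Bowtie2 and TopHat2, without versions or roles. Each deposited score is a gene's normalized read count, which the authors rounded to a whole number. Of 166719 values repeated between tables, 0 differed. The authors also deposited p-values, plain and adjusted, and a fold ratio of group means after adding 1. A further 48 per-sample columns with other forms of these values were not used. Size factors of 0.63 to 1.29, and from them the reads per library, were inferred from which low whole numbers do not occur, within an upper bound of 1.5 set after 1 library gave a multiple. On simulated data 60 of 60 random factors came back within 0.005, but an exact factor of 0.8, where rounding ties, gave 1.4, so read numbers are estimates.

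Tests used limma 3.58.1 (R 4.3.3) on log2(value + 1) (limma-trend, robust empirical Bayes, all 12 libraries, a coefficient per group, 8 residual degrees of freedom, two-sided, Benjamini-Hochberg adjusted over the 12385 genes with values in all libraries and, in 1 group or more, a mean of 10 or higher). The fit was tested on simulated data. Folds of low genes are drawn toward 1. The members, the wider list, the tests and the alternatives were chosen with earlier results of these data known. Named genes were the members, every called gene of the list (2 genes of the list are counted but not reported here by name), Myd88, and the 5 genes most like Il6 and Socs3 by Pearson r. Alternatives were a replicate block, TMM factors, quantile normalization, no trend, other filters and pseudocounts, only the groups compared, omission of each library or of both wt untreated replicates 1 and 3, and limma-voom on estimated reads, added after seeing the data. Promoter sequences are from RefSeq (GRCm38.p6), where 8 of the 9 members matched.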

Additional observations from a re-analysis of the deposited data

How the results depend on the processing

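Of 1006 member values recomputed under alternatives, 23 turned direction, 0 lost a call, 8 gained one and the rest stayed as they were. The gains were Il6st with LPS in wt under 5 settings and untreated Osmr between genotypes under 3. Only 2 of 18 correlations between same-numbered libraries exceeded 0.1 (−0.114 to 0.171), so the numbers were not taken as pairs, although 9 of 12 libraries correlated best with their own number, a hint of pairing from the data and not from the design. With the replicate block 1 member was called between untreated genotypes in place of 0 (Osmr, adjusted p = 0.0483), and Il6st with LPS in wt was called (0.0236). A group mean of at least 50 also gave 1 call, and omitting 1 library gave 0 to 1. The wider list had 3 calls with LPS in MyD88ko by limma without trend and 3 to 6 with 1 library omitted, against 5, and 2 untreated calls between genotypes without both wt untreated replicates 1 and 3, against 5, where 1 wt untreated library is left. The other counts stayed within 1.5 times.

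Direction turned for 23 member values, none of them called in the report; the cause was not tested. Without both wt untreated replicates 1 and 3 the log2 values were −0.11 (Lif) and −0.28 (Il6st) between untreated genotypes, 0.08 for Il11 with LPS in wt, and 0.12 (Lif), −0.15 (Il11) and 0.18 (Il6st) for the difference of responses. With a pseudocount of 5, Lif between genotypes with LPS was −0.01. With 1 library omitted, values with LPS in wt ran from −0.45 to 0.28 (Lif), −0.44 to 0.22 (Il11), −0.45 to 0.34 (Clcf1) and −0.16 to 0.76 (Socs3). In MyD88ko they ran from −0.04 to 0.90 (Il6) and −0.26 to 0.09 (Il11). Between genotypes they ran from −0.28 to 0.30 for Lif with LPS and −0.08 to 0.25 for Stat3 untreated, and for the difference of responses from −0.29 to 0.37 for Il11. Only the groups compared gives the same fit for the difference of responses and was not run there. Genes with few reads, Il6, Il6ra, Lif, Clcf1 and Socs3, had the widest intervals.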
